A study of Homo sapiens with 14 samples.

Results

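The respiratory chain of the inner mitochondrial membrane was followed through its genes in UM1, an established cell line of human tongue squamous cell carcinoma. Genes were taken by symbol: NDUFA, NDUFB, NDUFC, NDUFS or NDUFV followed by a digit (complex I), SDHA to SDHD (complex II), UQCR (complex III), COX4 to COX8 (complex IV), ATP5 (complex V), and the mitochondrially encoded MT-ND, MT-CYB, MT-CO and MT-ATP genes. Assembly factors were left out. The rule found 108 of the 17423 genes listed in either expression table, 88 of them in both. The overexpression table held 104 of them, of which 75 are nuclear-encoded subunits and 13 mitochondrially encoded ones. The knockdown table held 92, of which 73 are nuclear-encoded subunits and 0 mitochondrially encoded. The remaining rows were kept apart: 9 pseudogenes in the overexpression table and 13 in the knockdown table, antisense RNAs of NDUFA6 and NDUFV2, the retrocopy UQCRHL, the paralog NDUFA4L2, and COX7A2L, ATP5S and ATP5SL, which are associated with the complexes. CYC1 and NDUFAB1 are subunits whose symbols lie outside the rule.

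Complexes I, III and IV pass electrons from NADH and from ubiquinol to oxygen and pump protons across the inner membrane, complex II feeds electrons from succinate into the same pool, and complex V uses the proton gradient to make ATP. Complex II is encoded by the nucleus alone, whereas the other complexes combine nuclear-encoded subunits with core subunits made inside the organelle from mitochondrial DNA. Mitochondrial DNA is transcribed as long precursors from either strand that are cut into ribosomal, transfer and messenger RNAs.

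RNA-seq was carried out on 10 libraries in 2 experiments, in a study of how PRMT5, an arginine methyltransferase, bears on gene regulation by ΔNp63α, a form of the transcription factor p63 that is typical of basal cells in squamous epithelia. The first experiment has 2 libraries of UM1 cells with a short hairpin against PRMT5 (shPRMT5) and 2 with a hairpin against GFP (shGFP), and the second has 3 libraries of UM1 cells overexpressing ΔNp63α (labelled DNp63α, OE) and 3 with the vector alone. The sources used here do not give the hairpin sequences, the promoter of the transgene, the time of harvest or whether clones or pools were used. Another 4 samples, profiled by CUT&Tag, are not analysed here.

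Values are TPM, which scale each gene's reads by its length and each library to a fixed total. Each experiment has its own table and was tested alone, with limma on log2(TPM + 1) over all genes with a mean of at least 1 TPM, and a gene was called higher or lower at a Benjamini-Hochberg adjusted p under 0.05. All log2 folds below are on that scale, which understates changes of low genes, and plain folds are ratios of mean TPM. TPM keeps no absolute depth. Relative length-scaled depth, read from low values, was 0.713 to 0.743 of shGFP replicate 1 in the other knockdown libraries and 1.01 to 1.08 of vector replicate 1 in the other overexpression libraries. The titles call the replicates biological, but whether each came from a culture of its own is not said, and the p-values therefore reflect the spread among these libraries alone, part of which may be technical. PRMT5 stood at 142.8 and 126.0 TPM in shGFP and at 29.3 and 33.6 TPM in shPRMT5 (log2 fold -2.06, SE 0.18, limma adjusted p = 9.74e-09). In the overexpression experiment PRMT5 stood at 95.4, 61.09 and 68.65 TPM with the vector and at 130.9, 97.0 and 118.3 TPM with ΔNp63α. It was called higher there (log2 fold 0.63, SE 0.19, limma adjusted p = 0.0325). That call was lost without vector replicate 2 or 3, or without ΔNp63α replicate 1 or 3. TP63 stood at 138, 82.3 and 97.3 TPM with the vector and at 152, 160 and 168 TPM with ΔNp63α (log2 fold 0.62, SE 0.18, limma adjusted p = 0.03), a call lost without vector replicate 2 (adjusted p = 0.0963), vector replicate 3 (0.098) or ΔNp63α replicate 1 (0.0678), 2 (0.0712) or 3 (0.101). All 10 squamous epithelial markers were listed in both tables, and PTPRC, CD3E, CD68 and LYZ, markers of leukocytes, were not listed in either.

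Under ΔNp63α, messenger RNAs of nuclear-encoded subunits were called higher in each of the 5 complexes, while none of those encoded by mitochondrial DNA were. Of 74 nuclear-encoded subunits tested, 36 were called higher and 1, COX6B2, was called lower. Over all 13382 genes tested, 7.34% were called higher and 14.1% lower. The median log2 fold of the nuclear-encoded subunits was 0.46, with 66 of 74 above 0, beside -0.04 for all genes, of which 46.1% lay above 0. Groups did not overlap, with every ΔNp63α library above every vector library, for 51 of the 74 subunits, beside 14.2% of all genes, and for 3 with every ΔNp63α library below, beside 23.7%. Of the 13 mitochondrially encoded subunits, 0 were called higher and 3 lower, with a median log2 fold of -0.25. By limma, 5 of the 13 had an unadjusted p under 0.05.

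The summed nuclear-encoded subunits took 1.49%, 1.55% and 1.29% of TPM in the vector libraries and 1.95%, 1.92% and 1.93% in the ΔNp63α libraries. All 3 ΔNp63α libraries lay above all 3 vector libraries and close together, while vector replicate 3 lay lowest. The 13 mitochondrially encoded subunits took 19.4%, 22.9% and 25.7% of TPM with the vector and 17.2%, 19.7% and 17.6% with ΔNp63α, ranges that overlapped. Their summed TPM was 13.0, 14.7 and 19.9 times that of the nuclear-encoded subunits in the vector libraries and 8.80, 10.2 and 9.09 times in the ΔNp63α libraries, without overlap. Since all rows of a library share 1 total, a smaller mitochondrial share raises every nuclear row. Taken over nuclear-encoded rows alone, the subunits still held 1.87%, 2.03% and 1.76% with the vector and 2.39%, 2.44% and 2.39% with ΔNp63α. On that scale 25 of them were called higher, with a median log2 fold of 0.39. Of all 13839 genes tested on it, 783 were called higher and 2288 lower, with a median log2 fold of -0.11.

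**Figure D1:**
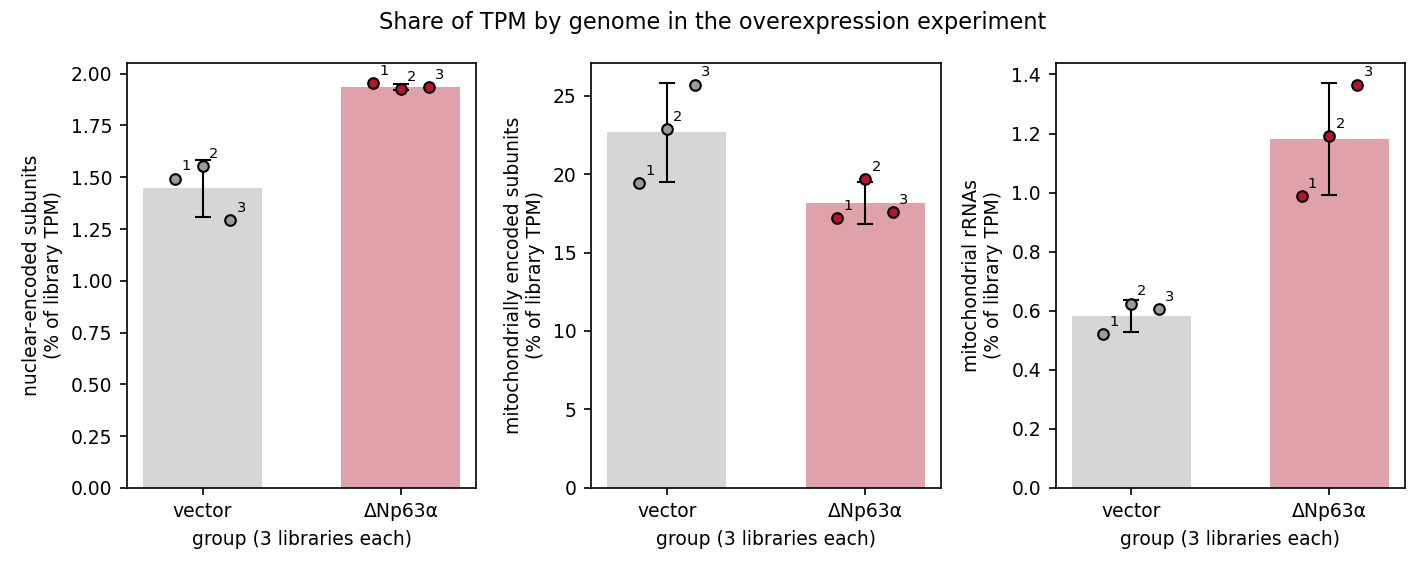
Share of each library's TPM, in percent, taken by nuclear-encoded subunits, mitochondrially encoded subunits and the mitochondrial rRNAs in 3 vector and 3 ΔNp63α libraries; bars are means, error bars SD, points libraries with their replicate number. The nuclear-encoded share is 1.29% to 1.55% with the vector and 1.92% to 1.95% with ΔNp63α, the mitochondrially encoded shares overlap, and the rRNA share is higher in every ΔNp63α library.

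Of the vector libraries, replicate 3 was the lowest for 58 of the 75 nuclear-encoded subunits, beside 27.3% of all genes tested. Without it, 13 nuclear-encoded subunits were called higher, and without ΔNp63α replicate 3 there were 15. Without ΔNp63α replicate 1 there were 22, and without ΔNp63α replicate 2 there were 23. Over all genes, 426, 417, 791 and 567 were called higher in the same order, beside 982 with all libraries. The median log2 fold of the subunits stayed between 0.40 and 0.50 in all 6 fits that left out 1 library. Of all 41 rows called higher, 41 kept their sign in each of these fits. Where groups do not overlap, leaving out 1 library cannot change the sign. The call was kept in each fit by 12 rows: NDUFA6, NDUFB1, NDUFB2, NDUFB3, NDUFB6, NDUFS5, COX7A2, COX7C, NDUFA4, ATP5E, ATP5H and ATP5I. The summed level of the 10 squamous markers moved in the same direction, from 8772 to 15710 TPM across vector libraries and from 19830 to 35230 TPM across ΔNp63α libraries, and the summed level of the 3 fibroblast markers listed, from 29.7 to 38.2 TPM and from 42.8 to 61.5 TPM. Their part in the result was not tested. In bulk RNA, more cells of one state and more RNA per cell cannot be told apart.

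**Figure D2:**
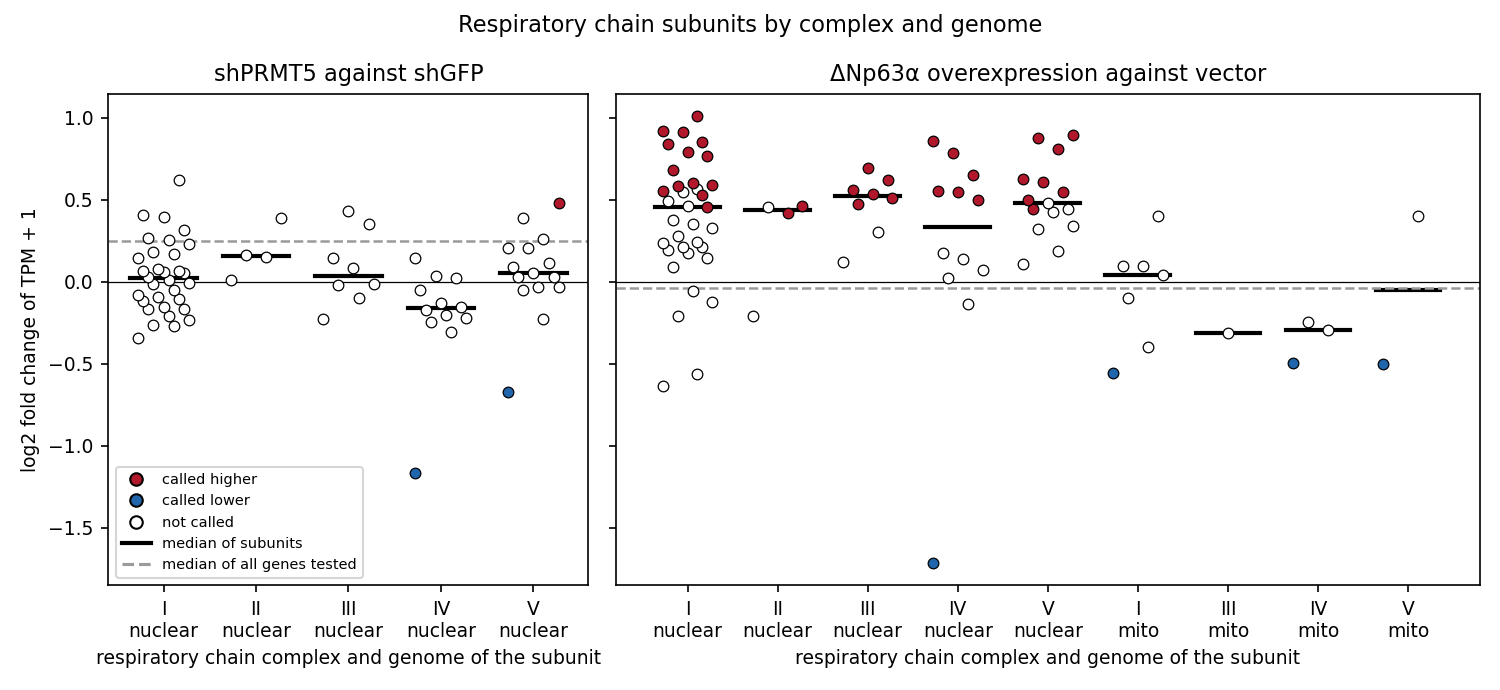
Log2 fold change of TPM + 1 (vertical axis) of every tested subunit by complex and genome, for shPRMT5 against shGFP and ΔNp63α against vector; filled points were called by limma, short bars are medians of the subunits and the dashed line the median of all genes. Under ΔNp63α the nuclear-encoded medians run from 0.34 to 0.52 and the mitochondrially encoded ones from -0.31 to 0.04, and in the knockdown the medians lie between -0.16 and 0.16, below the dashed line at 0.25.

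Promoters of 6 subunits are printed. COX6B2 was taken as the nuclear-encoded subunit called lower. The others are, for each complex, the member with the largest rise under ΔNp63α that the promoter table holds. Each is the RefSeq promoter of build GRCh38.p14, 250 bases before to 50 bases after the start of the gene, 5′ to 3′, and capitals mark matches on either strand to the NRF1 motif (GCGCA, any base, then GCGC), to CCGGAAG, the core that ETS factors such as GABP bind, or to ATGGCGGC, a motif of YY1. No match overlaps another in these 6 windows.
NDUFB3 promoter, chr2:201071751-201072050, plus strand: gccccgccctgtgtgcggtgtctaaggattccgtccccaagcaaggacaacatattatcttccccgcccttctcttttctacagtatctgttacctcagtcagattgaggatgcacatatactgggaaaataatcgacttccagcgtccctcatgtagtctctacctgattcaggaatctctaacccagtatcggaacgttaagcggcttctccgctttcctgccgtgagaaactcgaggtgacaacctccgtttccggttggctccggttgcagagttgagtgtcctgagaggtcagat
SDHB promoter, chr1:17053983-17054282, minus strand: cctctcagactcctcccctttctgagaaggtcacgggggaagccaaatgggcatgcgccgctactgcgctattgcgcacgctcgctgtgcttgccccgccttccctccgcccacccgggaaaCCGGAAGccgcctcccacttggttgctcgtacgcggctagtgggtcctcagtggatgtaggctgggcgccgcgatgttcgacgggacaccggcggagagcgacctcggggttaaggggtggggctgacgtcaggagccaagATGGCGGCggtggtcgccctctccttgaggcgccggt
UQCRQ promoter, chr5:132866392-132866691, plus strand: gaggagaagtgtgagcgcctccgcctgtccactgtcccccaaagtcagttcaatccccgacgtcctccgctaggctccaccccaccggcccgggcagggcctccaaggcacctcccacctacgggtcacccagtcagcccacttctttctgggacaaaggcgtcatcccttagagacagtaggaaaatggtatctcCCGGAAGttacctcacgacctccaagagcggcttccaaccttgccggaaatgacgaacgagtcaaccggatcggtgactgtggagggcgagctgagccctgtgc
COX7C promoter, chr5:86617691-86617990, plus strand: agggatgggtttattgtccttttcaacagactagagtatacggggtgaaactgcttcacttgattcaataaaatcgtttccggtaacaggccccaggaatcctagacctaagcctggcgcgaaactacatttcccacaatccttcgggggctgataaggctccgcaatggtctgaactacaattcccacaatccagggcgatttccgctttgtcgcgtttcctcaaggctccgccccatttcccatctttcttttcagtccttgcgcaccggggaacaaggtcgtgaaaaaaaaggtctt
ATP5I promoter, chr4:674227-674526, minus strand: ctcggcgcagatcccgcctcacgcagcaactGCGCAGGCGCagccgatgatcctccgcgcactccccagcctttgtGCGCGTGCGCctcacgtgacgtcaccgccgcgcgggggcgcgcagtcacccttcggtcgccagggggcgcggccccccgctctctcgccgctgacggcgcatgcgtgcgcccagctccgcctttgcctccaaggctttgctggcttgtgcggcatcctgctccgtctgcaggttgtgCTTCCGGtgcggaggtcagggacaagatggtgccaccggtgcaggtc
COX6B2 promoter, chr19:55354670-55354969, minus strand: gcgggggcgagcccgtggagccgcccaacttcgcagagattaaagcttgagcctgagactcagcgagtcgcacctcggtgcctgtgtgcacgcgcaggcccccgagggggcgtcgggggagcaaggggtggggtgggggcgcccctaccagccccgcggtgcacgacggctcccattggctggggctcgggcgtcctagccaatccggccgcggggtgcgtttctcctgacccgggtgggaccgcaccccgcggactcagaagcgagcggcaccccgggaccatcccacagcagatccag
NDUFB3, COX7C and COX6B2 held none of the 3 motifs in this window, SDHB held an ETS and a YY1 match, UQCRQ an ETS match, and ATP5I, whose current symbol is ATP5ME, an ETS match and a pair of NRF1 matches. Of the 75 nuclear-encoded subunits, 62 matched an entry of the promoter table. The NRF1 motif stood in 24.2% of them, beside 6.29% of all 27305 promoters and 12.2% of those of protein-coding genes tested in the overexpression table. CCGGAAG stood in 30.6% of them, beside 10.7% and 19.8%, and ATGGCGGC in 19.4%, beside 3.21% and 6.57%. Among subunits called higher under ΔNp63α, 11 of 27 held CCGGAAG (40.7%, 95% Wilson interval 24.5% to 59.3%), and among the others 8 of 35 did (22.9%, 12.1% to 39.0%), so the intervals overlapped. The NRF1 motif went the other way, in 5 of 27 (18.5%, 8.18% to 36.7%) and in 10 of 35 (28.6%, 16.3% to 45.05%). So did ATGGCGGC, in 4 of 27 (14.8%, 5.92% to 32.5%) and in 8 of 35 (22.9%, 12.1% to 39.0%). Those intervals overlapped as well. The p53 family half-site, a motif chosen after the other 3 that p63 also recognises, stood in 0 of the 27 promoters and in 2 of the other 35. It stood in 6.54% of all promoters and in 5.145% of those of protein-coding genes tested in the overexpression experiment. The 95% Wilson interval for 0 of 27 reached 12.5% and so included both shares. A match describes letters and is no measure of binding.

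In complex I, 14 of 35 tested nuclear-encoded subunits were called higher under ΔNp63α and 0 lower, with a median log2 fold of 0.46. Without vector replicate 3 there were 6, and without ΔNp63α replicate 3 there were 7. NDUFB3, an accessory subunit of the membrane arm, stood at 31.2, 29.7 and 21.0 TPM with the vector and at 52.7, 52.8 and 60.7 TPM with ΔNp63α (2.03-fold, log2 fold 1.01, SE 0.18, limma adjusted p = 0.00204). Its lowest ΔNp63α library was well above its highest vector library, and its call held in all 14 alternatives. NDUFB1, also of the membrane arm, stood at 28.4, 28.9 and 25.7 TPM and at 43.7, 59.1 and 57.9 TPM (log2 fold 0.92, SE 0.16, limma adjusted p = 0.00239). NDUFA6, an accessory subunit of the LYR-motif family on the matrix arm, stood at 87.7, 74.4 and 56.0 TPM and at 132, 134 and 142 TPM (log2 fold 0.92, SE 0.17, limma adjusted p = 0.00306). For these genes the groups did not overlap.

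NDUFS5, an accessory subunit facing the intermembrane space and the most abundant nuclear-encoded one of complex I, stood at 1144, 1335 and 987 TPM with the vector and at 1746, 1867 and 1916 TPM with ΔNp63α (1.59-fold, log2 fold 0.68, limma adjusted p = 0.00634). The 7 nuclear-encoded core subunits, which carry the flavin and iron-sulfur clusters or bind ubiquinone, had a median log2 fold of 0.21, with 2 called: NDUFS1, which holds several iron-sulfur clusters (1.54-fold, adjusted p = 0.0179), and NDUFS3 (1.38-fold, adjusted p = 0.0438). The 28 accessory subunits had a median of 0.51, with 12 called higher. Whether core and accessory subunits differ was not tested. NDUFV1, the core subunit that binds NADH and flavin, stood at 112.5, 103.2 and 85.4 TPM with the vector and at 98.3, 79.45 and 97.8 TPM with ΔNp63α, and was not called. A few subunits were listed close to 1 TPM, with NDUFV2 at 0.769, 1.07 and 2.59 TPM with the vector, NDUFA7 at 1.02, 1.14 and 0.672 TPM and NDUFA13 at 2.24, 1.493 and 1.935 TPM. NDUFV2P1, a copy of NDUFV2, was listed at 4.598, 2.035 and 3.921 TPM. The sources used here do not say how reads shared by copies or by overlapping genes were counted, so these levels are uncertain.

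In complex II, which has no mitochondrially encoded subunit, 2 of 4 genes were called higher. SDHB, the iron-sulfur subunit, stood at 247, 252 and 231 TPM with the vector and at 340, 324 and 342 TPM with ΔNp63α (1.38-fold, log2 fold 0.46, SE 0.13, limma adjusted p = 0.0248). SDHC, a membrane anchor, stood at 209.7, 192.4 and 176.8 TPM and at 274.8, 256.0 and 243.2 TPM (1.34-fold, log2 fold 0.42, SE 0.14, limma adjusted p = 0.0472). The groups did not overlap for either gene. The SDHB call was lost without vector replicate 3 (limma adjusted p = 0.0945), ΔNp63α replicate 1 (0.063) or ΔNp63α replicate 3 (0.131). The SDHC call was lost without vector replicate 2 (limma adjusted p = 0.0848) or 3 (0.173), or without ΔNp63α replicate 1 (0.124), 2 (0.0959) or 3 (0.128). SDHD, the other anchor, had a log2 fold of 0.46 at an adjusted p of 0.0548. SDHA, the flavoprotein, was listed at 9.66, 10.2 and 9.52 TPM with the vector and at 9.45, 6.905 and 8.80 TPM with ΔNp63α, far below its partners. Its groups just missed each other, and it was not called.

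In complex III, 6 of 8 genes were called higher and all 8 had log2 folds above 0, with a median of 0.52. UQCRQ, a small subunit next to cytochrome b, stood at 178, 198 and 136 TPM with the vector and at 239.6, 329.9 and 258.9 TPM with ΔNp63α (1.62-fold, log2 fold 0.69, SE 0.18, limma adjusted p = 0.016). UQCRH, the hinge protein and the most abundant of the complex, stood at 472, 572 and 427 TPM and at 785, 663 and 804 TPM (1.53-fold, log2 fold 0.62, SE 0.15, limma adjusted p = 0.0134). UQCRB, which lies close to a ubiquinone site, stood at 24.3, 29.0 and 19.4 TPM and at 32.7, 37.55 and 37.0 TPM (log2 fold 0.56, SE 0.18, limma adjusted p = 0.0413). No group overlapped in these genes. The Rieske iron-sulfur protein UQCRFS1 rose 1.43-fold (adjusted p = 0.0394), while the core proteins UQCRC1 and UQCRC2 had log2 folds of 0.12 and 0.30 and were not called. No complex III call survived the removal of vector replicate 3, where UQCRQ had a log2 fold of 0.54 and an adjusted p of 0.0732. Of the 6 calls 5 were left without vector replicate 1, 4 without vector replicate 2, and 1, 2 and 1 without ΔNp63α replicates 1, 2 and 3. The retrocopy UQCRHL, nearly identical to UQCRH, was called higher at 12.9, 13.3 and 9.745 TPM against 18.1, 15.1 and 24.0 TPM, and how their shared reads were assigned is unknown here.

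In complex IV, 6 of 12 nuclear-encoded genes were called higher and 1 lower, with a median log2 fold of 0.34. Called higher were 3 without vector replicate 3 or ΔNp63α replicate 3, and 4 each without vector replicate 1, ΔNp63α replicate 1 or ΔNp63α replicate 2. COX7C, a small membrane subunit, stood at 425, 550 and 428 TPM with the vector and at 707, 981 and 856 TPM with ΔNp63α (1.81-fold, log2 fold 0.86, SE 0.16, limma adjusted p = 0.00342). NDUFA4, first assigned to complex I and since placed in complex IV, stood at 120, 145 and 138 TPM and at 215, 255.5 and 223 TPM (1.72-fold, log2 fold 0.78, SE 0.14, limma adjusted p = 0.00276). COX7A2, the broadly expressed form of subunit VIIa, stood at 159.5, 210.1 and 172 TPM and at 262, 294 and 292 TPM (1.57-fold, log2 fold 0.65, SE 0.15, limma adjusted p = 0.0087). All ΔNp63α libraries lay above all vector libraries for these genes, and each call held in all 14 alternatives. COX7B, COX6C and COX5B were called with adjusted p between 0.044 and 0.0469. COX4I1, COX5A, COX6A1, COX6B1 and COX8A, the broadly expressed forms of the other nuclear-encoded subunits, had log2 folds from -0.14 to 0.17 and were not called.

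A pair of relatives of broadly expressed complex IV subunits fell. COX6B2, the form of subunit VIb best known from testis, stood at 8.15, 7.35 and 6.99 TPM with the vector and at 1.58, 1.86 and 1.34 TPM with ΔNp63α (4.71-fold lower, log2 fold -1.72, SE 0.19, limma adjusted p = 0.000102). Its partner COX6B1 stood at 223, 248 and 193 TPM and at 269, 218 and 261 TPM, with overlapping groups (log2 fold 0.17). NDUFA4L2, the paralog of NDUFA4 known as a hypoxia-induced gene, stood at 158, 370 and 316 TPM and at 105, 127.5 and 94.7 TPM (2.58-fold lower, log2 fold -1.28, SE 0.26, limma adjusted p = 0.00513). Both falls held in every fit that left out 1 library, and vector replicate 1 was the lowest vector library for NDUFA4L2. In the vector libraries NDUFA4L2 stood above NDUFA4 in all 3, and in the ΔNp63α libraries NDUFA4 stood above NDUFA4L2 in all 3. COX7A2L, which resembles COX7A2 and takes part in supercomplexes, rose 1.47-fold (limma adjusted p = 0.0172), a call lost without vector replicate 3 (adjusted p = 0.0722) and without ΔNp63α replicate 3 (adjusted p = 0.0716). COX4I2, COX6A2, COX7A1, COX7B2 and COX8C, tissue-restricted forms, were not among the listed rows.

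**Figure D3:**
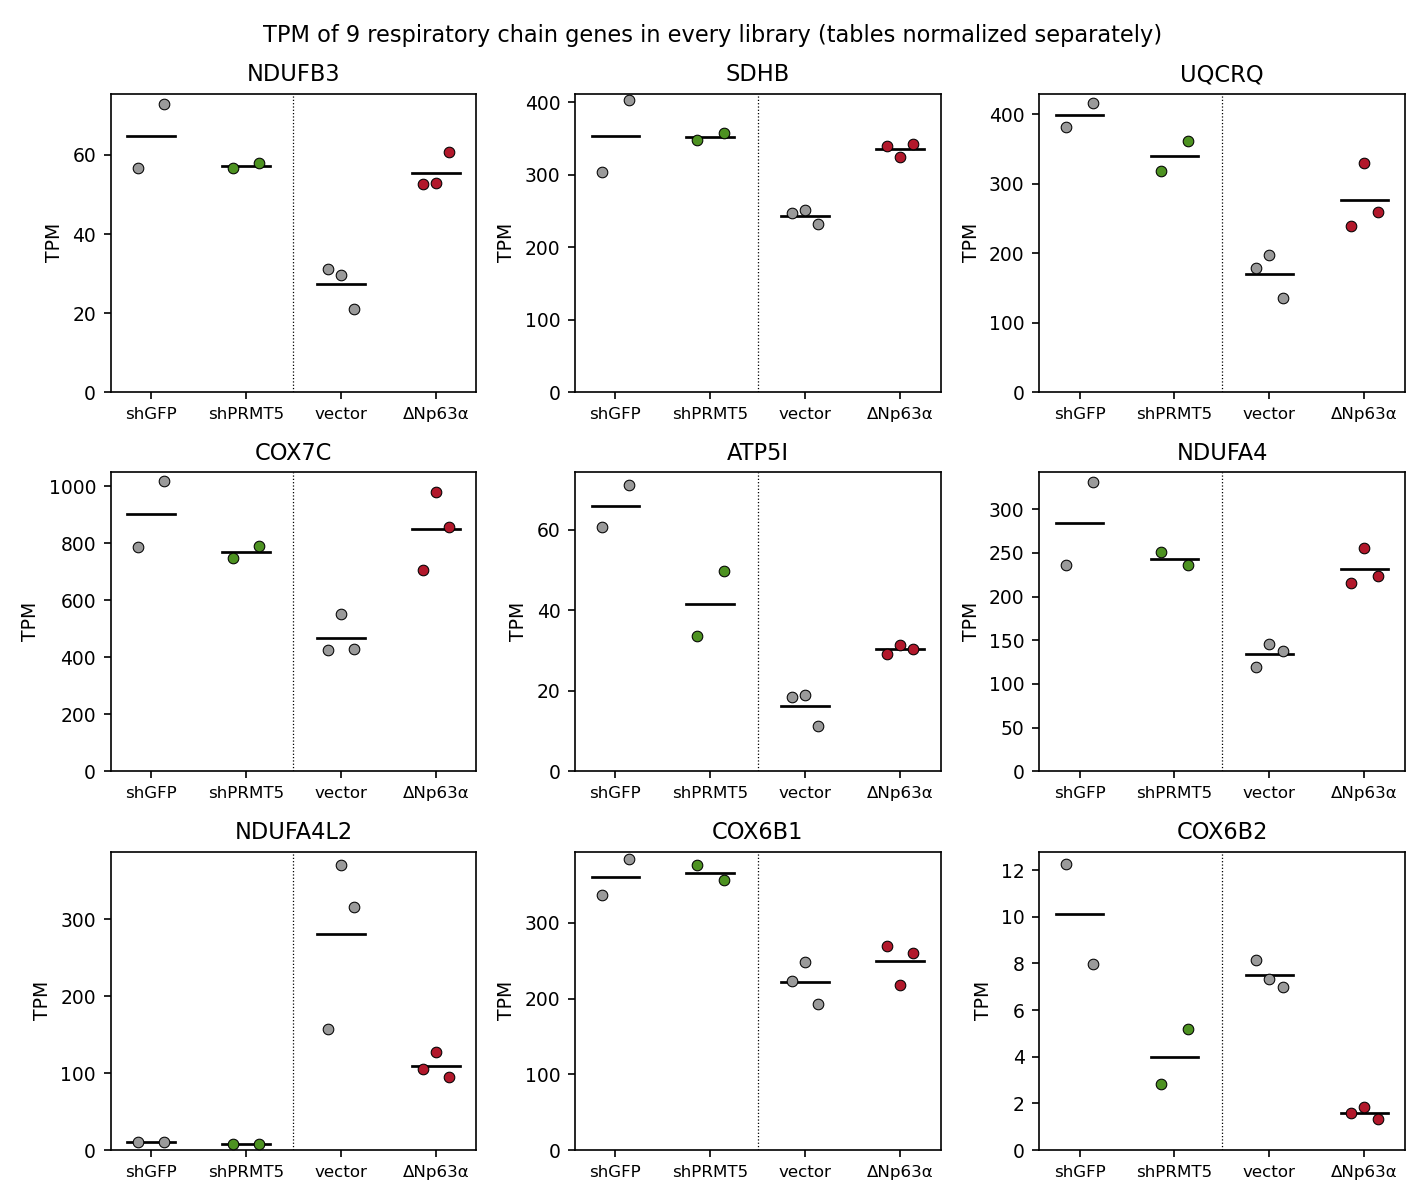
TPM (vertical axes, from 0) of 9 respiratory chain genes in every library of both experiments, with bars at group means; the tables were normalized separately, so heights are compared within each side of the dotted line. NDUFB3, SDHB, UQCRQ, COX7C, ATP5I and NDUFA4 are higher in all ΔNp63α libraries than in all vector libraries, NDUFA4L2 and COX6B2 are lower, and COX6B1 overlaps.

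In complex V, 8 of 15 nuclear-encoded genes were called higher under ΔNp63α, and all 15 had log2 folds above 0, with a median of 0.48. Without vector replicate 3 or ΔNp63α replicate 3, 4 were called. ATP5I, subunit e, which joins ATP synthase dimers, stood at 18.5, 18.9 and 11.35 TPM with the vector and at 29.2, 31.4 and 30.3 TPM with ΔNp63α (1.87-fold, log2 fold 0.89, SE 0.20, limma adjusted p = 0.00796). ATP5E, subunit epsilon of the rotor stalk, stood at 80.6, 88.7 and 65.4 TPM and at 116, 173 and 147.5 TPM (1.86-fold, log2 fold 0.88, SE 0.18, limma adjusted p = 0.0049). ATP5H, subunit d of the peripheral stalk, stood at 38.1, 47.9 and 39.5 TPM and at 73.8, 74.5 and 73.1 TPM (1.76-fold, log2 fold 0.81, SE 0.15, limma adjusted p = 0.00278). All 3 kept their calls in all 14 alternatives. Of the genes for the c-ring, ATP5G1 rose 1.53-fold and ATP5G3 1.46-fold, and ATP5G2 had a log2 fold of 0.32 and was not called. ATP5B, the catalytic beta subunit and the most abundant nuclear-encoded gene of the chain, stood at 2859, 2799 and 2778 TPM and at 3629, 3604 and 3447 TPM (1.27-fold, log2 fold 0.34, SE 0.13). Its groups did not overlap, but at an adjusted p of 0.0749 it was not called.

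Along the mitochondrial DNA the changes under ΔNp63α were uneven. The rRNAs, which are no subunits but lie first on the heavy-strand transcript, were both called higher: MT-RNR1, of the small mitochondrial ribosomal subunit, stood at 1038, 1190 and 1061 TPM with the vector and at 3016, 4168 and 5748 TPM with ΔNp63α (3.93-fold, log2 fold 1.93, SE 0.20, limma adjusted p = 6.98e-05). MT-RNR2, of the large one, stood at 4169, 5043 and 4992 TPM and at 6866, 7732 and 7914 TPM (1.58-fold, log2 fold 0.67, SE 0.14, limma adjusted p = 0.00619). Neither rRNA overlapped between groups, and both calls held in all 13 alternatives that could test them. MT-ND1, the next gene and a core subunit of complex I, stood at 4983, 4210 and 5315 TPM and at 6735, 6178 and 6196 TPM (1.32-fold, log2 fold 0.40, SE 0.14), without overlap and with an adjusted p of 0.0615.

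Further along, 3 messenger RNAs fell. MT-CO1, the catalytic core of complex IV, stood at 37520, 45030 and 52640 TPM with the vector and at 30080, 34050 and 30910 TPM with ΔNp63α (log2 fold -0.50, SE 0.16, limma adjusted p = 0.0449). MT-ATP6, the proton channel subunit of complex V, stood at 24880, 28790 and 33540 TPM and at 20170, 23220 and 18140 TPM (log2 fold -0.50, SE 0.16, limma adjusted p = 0.0458). MT-ND4, a proton-pumping subunit of complex I, stood at 17510, 18000 and 25260 TPM and at 13250, 15030 and 12640 TPM (log2 fold -0.55, SE 0.17, limma adjusted p = 0.0359). The groups did not overlap in these genes, and vector replicate 3 was the highest vector library in each. Without it 0 of the 13 were called lower, with log2 folds of -0.38, -0.39 and -0.38 for MT-CO1, MT-ATP6 and MT-ND4, and there were also 0 calls without any 1 of the ΔNp63α replicates, 1 without vector replicate 2 and 4 without vector replicate 1. After median-of-ratios rescaling the 3 calls were lost as well, at log2 folds of -0.43, -0.43 and -0.48.

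The other mitochondrially encoded subunits were not called. MT-CO3 of complex IV and MT-CYB, cytochrome b of complex III, had log2 folds of -0.29 and -0.31 with groups that did not overlap. MT-CO2 of complex IV, the most abundant of all members at a mean of 41700 TPM, had a log2 fold of -0.25, and MT-ND6, the one subunit encoded on the light strand, -0.40, both with overlapping groups. MT-ND2, MT-ND3, MT-ND4L and MT-ND5, all of complex I, lay between -0.10 and 0.10, and each changed sign in at least 1 fit that left out 1 library. MT-ATP8 was listed at 54.5, 21.2 and 47.9 TPM with the vector and at 41.3, 57.8 and 54.9 TPM with ΔNp63α, far below MT-ATP6, with which it shares a transcript. MT-ATP8 overlaps MT-ATP6, and MT-ND4L overlaps MT-ND4, so their division of reads is uncertain. Whether counting used strand is not said either. MTATP6P1, the nuclear pseudogene of MT-ATP6, was listed at 4772, 5678 and 6766 TPM with the vector and at 3920, 5125 and 4033 TPM with ΔNp63α.

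**Figure D4:**
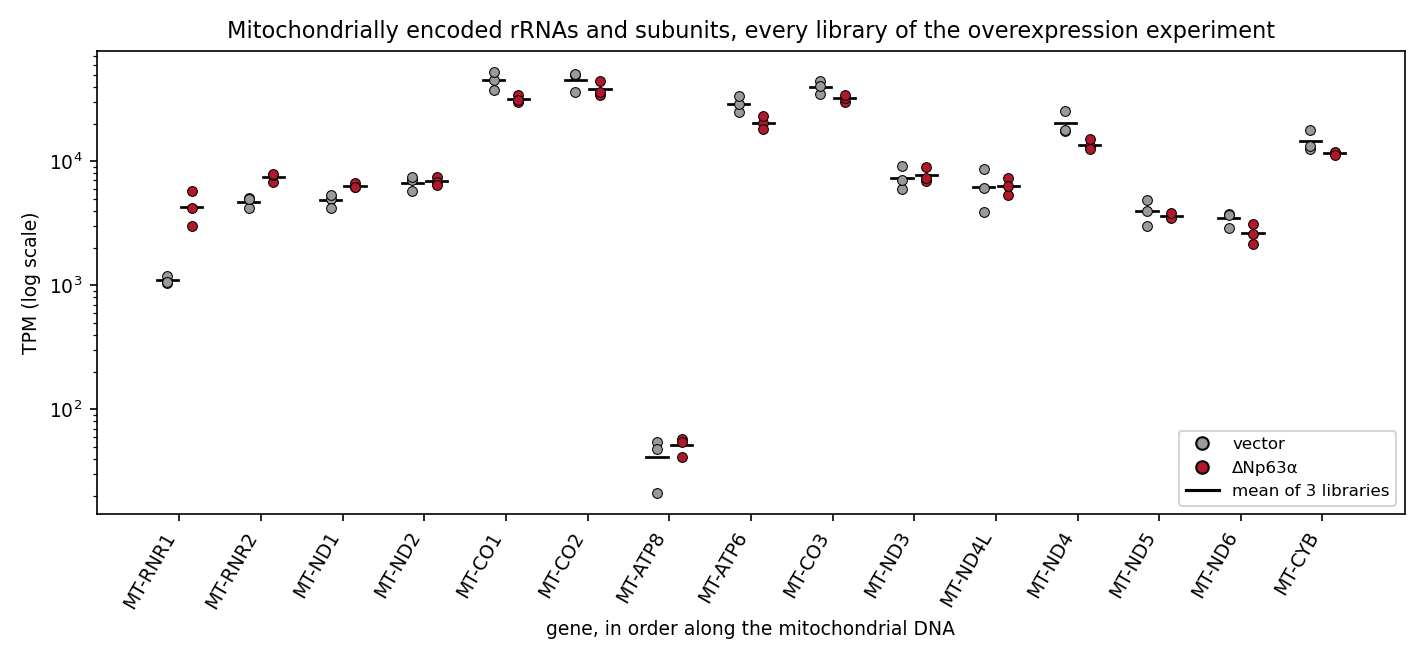
TPM on a log axis of the mitochondrial rRNAs and the 13 mitochondrially encoded subunits, in their order along the mitochondrial DNA, in 3 vector and 3 ΔNp63α libraries; bars are means. MT-RNR1, MT-RNR2 and MT-ND1 are higher in every ΔNp63α library, MT-CO1, MT-ATP6, MT-CO3, MT-ND4 and MT-CYB are lower in every one, and MT-ATP8 lies far below all others.

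Under PRMT5 knockdown few subunits were called, in a table in which most genes had log2 folds above 0. Of 71 nuclear-encoded subunits tested, 1 was called higher and 2 lower, beside 15.1% of all 12635 genes higher and 3.48% lower, and 8 had an unadjusted p under 0.05. Their median log2 fold was 0.02, beside 0.25 for all genes, of which 71.9% lay above 0. Groups did not overlap for 19 subunits in the higher direction, beside 49% of all genes, and for 11 in the lower one, beside 14%. Median-of-ratios rescaling moved the median of all genes by -0.24, to 0.01, and turned the split of all calls from 1904 higher and 440 lower to 480 higher and 886 lower. On that scale the subunits' median was -0.24, 0 were called higher and 5 lower. The summed nuclear-encoded subunits took 2.64% and 2.96% of TPM in shGFP and 2.79% and 2.715% in shPRMT5, with the shPRMT5 libraries between the shGFP ones.

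By complex, the median log2 fold in the knockdown was 0.02 in complex I, 0.16 in II, 0.03 in III, -0.16 in IV and 0.05 in V. In complex I 0 of 32 tested genes were called by limma, and 1 had an unadjusted p under 0.05: NDUFS1, at 14.2 and 21.9 TPM in shGFP and at 25.4 and 30.1 TPM in shPRMT5 (log2 fold 0.62, SE 0.23, adjusted p = 0.0534). In complex II 0 of 4 genes were called, with 0 under an unadjusted p of 0.05, and SDHD had the smallest p (log2 fold 0.39, adjusted p = 0.165). In complex III 0 of 8 genes were called, with 2 under an unadjusted p of 0.05, and UQCRC2 had the smallest (log2 fold 0.43, adjusted p = 0.0926). In complex IV 9 of 12 genes had log2 folds below 0 and COX6B2 alone was called: it stood at 12.25 and 7.96 TPM in shGFP and at 2.83 and 5.17 TPM in shPRMT5 (2.53-fold lower, log2 fold -1.17, SE 0.28, limma adjusted p = 0.00623).

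The most abundant members and the broadly expressed isoforms were not called in the knockdown. ATP5B stood at 4148 and 4418 TPM in shGFP and at 4676 and 4608 TPM in shPRMT5, and its groups were apart by little. NDUFS5, the most abundant gene of complex I here too, stood at 2082 and 2813 TPM and at 2557 and 2549 TPM, inside the spread of shGFP. COX8A, the highest of complex IV, stood at 1596 and 1688 TPM and at 1491 and 1285 TPM (log2 fold -0.25, limma adjusted p = 0.169), and COX7A2 at 415.7 and 491.0 TPM and at 378.1 and 352.6 TPM (log2 fold -0.31, limma adjusted p = 0.129), both without overlap. COX6B1 overlapped, at 337 and 384.5 TPM and at 376 and 356 TPM.

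In complex V the calls went both ways. ATP5F1, subunit b of the peripheral stalk, stood at 153 and 219 TPM in shGFP and at 237.5 and 274 TPM in shPRMT5 (1.38-fold, log2 fold 0.48, SE 0.17, limma adjusted p = 0.0451). ATP5I stood at 60.8 and 71.3 TPM in shGFP and at 33.5 and 49.75 TPM in shPRMT5 (1.59-fold lower, log2 fold -0.68, SE 0.20, limma adjusted p = 0.02). The groups of both genes were apart, but the libraries within each group were far from each other. In fits that left out 1 library, 1 group held 1 library, so log2 folds alone are given here. The ranges of counts called that are given below for these fits have the same limit. The median of the nuclear-encoded subunits ran from -0.06 to 0.07. That of all genes ran from 0.19 without shPRMT5 replicate 2 to 0.30 without shPRMT5 replicate 1. ATP5F1 ran from 0.22 to 0.74 and ATP5I from -0.95 to -0.40. All 5 calls among the 87 rows tested kept their sign, which is fixed in advance where groups do not overlap. The other 2 calls were of pseudogenes: NDUFA5P11 was higher (log2 fold 1.08, adjusted p = 0.00573), and COX6A1P2, nearly identical to COX6A1, was lower (log2 fold -0.55, adjusted p = 0.0258). shGFP replicate 1 was the lower shGFP library for 56 of the 73 nuclear-encoded subunits, beside 48% of all genes. The summed squamous markers ran from 13150 to 14690 TPM in shGFP and from 14100 to 14180 TPM in shPRMT5.

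Across both experiments, 71 nuclear-encoded subunits were tested in both tables. COX6B2 was called lower in both, ATP5F1 higher in both, and ATP5I lower in the knockdown and higher under ΔNp63α. The knockdown calls of these genes depended on the settings. ATP5F1 was not called there with a pseudocount of 0.1, without a filter on low values, after median-of-ratios rescaling or without the intensity trend. ATP5I was not called there without the filter or without the trend, and COX6B2 was not called there without the filter. Another 33 were called higher under ΔNp63α and not called in the knockdown, and whether their changes differ between the experiments was not tested, since the tables were normalized separately. NDUFA4L2 stood at 10.75 and 10.71 TPM in shGFP and at 7.71 and 7.77 TPM in shPRMT5, a difference that was not called (log2 fold -0.42, SE 0.24, adjusted p = 0.219), and its level in the vector libraries lay far above that in the shGFP libraries. NDUFA5P11 was also called higher under ΔNp63α (log2 fold 0.93, limma adjusted p = 0.0333), as were the pseudogenes UQCRFS1P1 (log2 fold 0.67, adjusted p = 0.0363) and COX6A1P2 (log2 fold 0.62, adjusted p = 0.0466), whose reads cannot be told apart here from those of similar copies. Each of these pseudogene calls was lost without vector replicate 3 and without ΔNp63α replicate 3.

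Genes that build and supply the chain were counted from lists, to be read under ΔNp63α beside 7.34% of all genes called higher and 14.1% lower. Of the subunits outside the rule, NDUFAB1, the acyl carrier protein of complex I, rose 1.54-fold under ΔNp63α (limma adjusted p = 0.00987) and CYC1 was not called. Of 17 complex I assembly factors, 5 were called higher and 0 lower under ΔNp63α, among them NDUFAF4 (2.79-fold, adjusted p = 0.0045) and C17orf89 (2.27-fold, adjusted p = 0.00213). Of 20 complex IV assembly factors tested, 4 were called higher, with HIGD1A, a hypoxia-induced factor of complex IV, rising 3.71-fold from a mean of 46.2 TPM (SD 4.67, n = 3) to 171 TPM (SD 54.2, n = 3; limma adjusted p = 0.000108). Of 10 factors of complexes II and III, 2 were called higher, LYRM7 and UQCC1, and of 3 factors of complex V, 2, ATPAF1 and ATPAF2. Among 20 electron carriers and quinone-linked genes 3 were called higher and 1 lower. Cytochrome c, CYCS, which carries electrons from complex III to IV, rose 1.78-fold (adjusted p = 0.00567), and SQRDL, which feeds electrons from sulfide into ubiquinone, fell to 0.483 of its vector level (adjusted p = 0.00215). In the knockdown, the same lists had 3 of 21 electron carriers called higher, 1 of 17 complex I factors (TMEM70), and 2 of 22 complex IV factors, HIGD1A and COX16, with COA3 lower. UQCC2, a complex III factor, was the 1 of 10 called lower in its list, and 0 of 3 complex V factors and 0 of the 2 subunits outside the rule were called by limma, with 1 and 0 under an unadjusted p of 0.05.

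Of 33 genes of mitochondrial DNA transcription and RNA handling, 7 were called higher and 1 lower under ΔNp63α, with a median log2 fold of 0.38. SLIRP, which stabilises mitochondrial messenger RNA, rose 2.16-fold (limma adjusted p = 0.00163), TFB2M, an initiation factor of the mitochondrial RNA polymerase, 1.997-fold (adjusted p = 0.00248) and TRMT10C, of the RNase that frees transfer RNAs, 1.76-fold (adjusted p = 0.0124). POLG, the mitochondrial DNA polymerase, fell to 0.45 of its vector level (adjusted p = 0.00177). In the knockdown 7 of the 33 were called higher and 0 lower, with a median of 0.42, among them LRPPRC, TFB2M, SUPV3L1 and TFAM, the called genes with the largest log2 folds of TPM + 1. The citrate cycle list had 7 of 18 genes called higher in the knockdown (median log2 fold 0.44), among them DLAT (1.80-fold) and SUCLG2 (1.64-fold), and 3 higher and 1 lower under ΔNp63α (median 0.21). Nuclear regulators of the chain had 2 of 11 called higher in the knockdown, YY1 (1.94-fold, limma adjusted p = 0.00287) and PPARGC1B (2.25-fold, adjusted p = 0.0464), and 0 of 11 called under ΔNp63α by limma, with 1 under an unadjusted p of 0.05. These knockdown counts stand in a table where 15.1% of all genes were called higher, and after median-of-ratios rescaling 480 of 12635 were.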

How the data were processed

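RNA-seq of UM1 cells was deposited as 2 tables of TPM values made by the authors, 1 for the knockdown and 1 for the overexpression. The submitters' processing notes list GRCh37 and hg19 as builds, and as tools DESeq2 1.24.0, FastQC, featureCounts and Bowtie, without roles; the tool that gave TPM is not stated there. The tables hold 16237 and 16137 genes and 0 values of 0, so a gene at 0 in any library is not listed. Blank rows (2 and 1) were dropped, and 9 symbols turned into dates were restored in each table by gene identifier; 99.98% and 99.93% of identifiers matched the names given. All sample columns were used.

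Genes with a mean of at least 1 TPM were tested with limma 3.58.1 in R 4.3.3 on log2(TPM + 1), two-sided, with an intensity trend, each table alone and without replicate blocks, and Benjamini-Hochberg adjustment over all genes tested at 0.05. The script was tested on simulated data. For added changes of log2 0.5 it recovered 23.9% in the knockdown design and 9% in the overexpression design. For changes of log2 1 it recovered 88.1% and 86.6%. Each of these sizes was added to 67 genes, beside 2344 and 2875 genes called in the data. The adjusted p depends on how many genes change, so recovery in the data may differ. A gene not called may therefore still have changed by a small amount. Median-of-ratios size factors were taken over the genes tested. Counts and absolute depth are unknown, so no counting intervals are given. Members and lists were chosen with earlier results of these data known. The genes named are PRMT5, TP63, all mitochondrially encoded members, up to 3 called members per complex and direction by size of log2 fold (the smallest p where none was called), isoform and paralog pairs, the most abundant member of each complex, called pseudogenes and up to 4 called genes per list; other names were chosen after their values were seen. RefSeq promoters (GRCh38.p14) were searched on both strands with Python 3.11.15; intervals on motif shares are 95% Wilson intervals. The alternatives were a pseudocount of 0.1, no filter, a filter at 5 TPM, median-of-ratios rescaling, no trend, a replicate block, nuclear-encoded rows alone and each library left out. The rescaling with the block, and the p53 family motif, were added after the data were seen.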

Additional observations from a re-analysis of the deposited data

How the results depend on the processing

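TPM gives no depth, so low genes are the least certain, and 2 or 3 libraries a group limit every call. Alternatives were run gene by gene for the members named by the stated rule, PRMT5 and TP63; among these, the log2 folds that changed sign are all given here, and none was of a called gene. The cause of each change was not tested, beyond fewer genes or libraries where the alternative removes them.

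In the knockdown, all rows called were 2 higher and 3 lower. Rows called higher were 1 with a pseudocount of 0.1, without a filter, after median-of-ratios rescaling or without the trend, and 5 with a filter at 5 TPM or a replicate block. Rows called lower were 0 without a filter, 7 after rescaling and 1 without the trend. Nuclear-encoded subunits called higher were 0 with a pseudocount of 0.1, without a filter, after rescaling or without the trend, all through complex V at 0, and 3 with a filter at 5 TPM or the block, with 1 in complex I and 1 in complex III. Those called lower were 0 without a filter (complexes IV and V at 0), 5 after rescaling (2 in complex I, 2 in complex IV) and 1 without the trend (complex V at 0). Rescaling gave the subunits a median log2 fold of -0.24 and reversed ATP5B to -0.16, COX6B1 to -0.25, NDUFS5 to -0.20, SDHB to -0.26 and TP63 to -0.24.

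Under ΔNp63α, 41 rows were called higher and 5 lower. Rows called higher were 24 without the trend, and rows called lower were 3 without a filter, after rescaling, without the trend, over nuclear-encoded rows alone or after rescaling with the block. Nuclear-encoded subunits called higher were 21 without the trend, with 0 in complex II, 2 in III and 3 in IV. Over nuclear-encoded rows alone complex II had 1, III 3 and IV 3, and without a filter IV had 3. Those called lower were 2 without a filter, after rescaling, without the trend or over nuclear-encoded rows alone, each with 1 in complex I, and 0 with a filter at 5 TPM, which drops COX6B2 from complex IV (0). Mitochondrially encoded subunits called lower were 0 without a filter, after rescaling, without the trend or after rescaling with the block. COX8A reversed to -0.047 over nuclear-encoded rows alone. The shares of compared promoters with the NRF1, ETS and YY1 motifs were 12.2%, 19.8% and 6.57% over genes tested.

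Same-numbered replicates deviated together with correlations of 0.324, 0.231 and 0.086 under ΔNp63α and 0.087 in the knockdown, so the numbers were not taken to pair the samples. With the replicate block, rows called were 51 higher and 7 lower under ΔNp63α, with 1 mitochondrially encoded subunit, MT-ND1, called higher and MT-ND6 also called lower, and neither was called after rescaling with the block. In the knockdown, rows called with the block were 5 higher and 4 lower. Under ΔNp63α every sample but vector replicate 3 correlated best with its own number. In the knockdown, with 2 libraries a group, the correlations can differ only in sign, so all samples match or none does.

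Leaving out each library in turn, rows called higher ranged from 1 to 14 and lower from 0 to 8 in the knockdown, and nuclear-encoded subunits from 0 to 11 and 0 to 7. By complex, counts called higher ranged from 0 to 4 (I), 0 to 1 (II), 0 to 2 (III) and 0 to 4 (V), and called lower from 0 to 1 (I), 0 to 5 (IV) and 0 to 1 (V), with a median log2 fold from -0.06 to 0.07. Under ΔNp63α, leaving out each library gave from 13 to 37 rows called higher and from 2 to 6 lower. Nuclear-encoded subunits ranged from 13 to 33 higher and from 1 to 2 lower, beside 417 to 1431 higher over all genes. By complex, counts called higher ranged from 6 to 14 (I), 0 to 2 (II), 0 to 5 (III), 3 to 6 (IV) and 4 to 9 (V), called lower from 0 to 1 (I), and mitochondrially encoded subunits called lower from 0 to 4. Medians ran from 0.40 to 0.50 and from -0.39 to -0.15.

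Log2 folds that changed sign when 1 library was left out ranged, in the knockdown, for COX6A1 from -0.21 to 0.11, COX6B1 from -0.071 to 0.12, COX7B from -0.38 to 0.11 and NDUFA4 from -0.44 to 0.042. There, they also ranged for NDUFS5 from -0.14 to 0.29, SDHB from -0.19 to 0.21, UQCRH from -0.27 to 0.23 and TP63 from -0.19 to 0.23. Under ΔNp63α they ranged for COX4I1 from -0.026 to 0.19, COX6A1 from -0.040 to 0.31, COX8A from -0.13 to 0.13 and MT-ATP8 from -0.008 to 0.65. For mitochondrial complex I genes they ranged for MT-ND2 from -0.072 to 0.12, MT-ND3 from -0.05 to 0.26, MT-ND4L from -0.19 to 0.37 and MT-ND5 from -0.28 to 0.066. Over all genes, rescaling turned 1904 higher and 440 lower into 480 and 886 in the knockdown, and 982 higher and 1893 lower into 1408 and 1744 under ΔNp63α.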

Other observations

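NDUFA3 and NDUFA6, accessory subunits of complex I, were listed in the overexpression table and not in the knockdown table, and some of their neighbours differed between the tables as well. Near NDUFA3, PRPF31 had a mean of 58.8 TPM in the overexpression table and 0.578 TPM in the knockdown table, CNOT3 28.4 and 6.38 TPM, and TFPT 10.8 TPM in the overexpression table while it was not listed in the knockdown table. Near NDUFA6, SMDT1 had 67.9 TPM and was not listed in the knockdown table, and TCF20 had 19.7 and 0.381 TPM. The tables were normalized separately, and these genes were chosen after their values were seen.

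The knockdown table lists no mitochondrially encoded row, but it lists nuclear copies of such genes. MTATP6P1 stood at 2670 and 2454 TPM in shGFP and at 2535 and 2519 TPM in shPRMT5. MTND2P28 stood at 197.0 and 175.2 TPM in shGFP and at 189.9 and 219.6 TPM in shPRMT5. Both overlapped between groups, and whether their reads came from the nuclear copies or from mitochondrial RNA was not tested.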
